A study of Mus musculus with 56 samples.

Results

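The transcripts of 10 genes associated with T cell memory, *S100a4*, *S100a6*, *S100a10*, *S100a11*, *S100a13*, *Anxa1*, *Anxa2*, *Anxa6*, *Lgals1* and *Vim*, were followed in fetus/graft-specific CD8+ T cells (TFGS) sorted from naive, sensitized and post-partum mice. The genes were taken by symbol from the 55359 genes of the RNA-Seq count table, and all 10 were among the 19657 genes with enough counts to be tested. They were chosen by the measured values of *S100a6*, which was higher in Sensitized and in N+P C5 TFGS than in Naive TFGS, so those 2 comparisons are given below as descriptions without a test. TFGS are endogenous CD8+ T cells of C57BL/6 females that bind tetramers of the OVA peptide on H-2Kb, taken from spleen and pooled lymph nodes and sorted as 200 live cells per library. Naive mice (n = 3) received no treatment. Sensitized mice (n = 4) had rejected a skin graft from 2W-OVA.BALB/c donors, a fully mismatched strain that expresses the 2W-OVA model antigen from a transgene, and were sampled about a month or longer after grafting. Naive+Pregnant (N+P) and Sensitized+Pregnant (S+P) females had litters by males of that transgenic strain and were sampled within days of delivery. Only part of the litter carries the paternal transgene. Post-partum TFGS were sorted by surface PD1 and CD73 into N+P C1 (PD1-, n = 3), N+P C5 (PD1+CD73+, n = 3), S+P C4 (PD1-, n = 6), S+P C5 (PD1+CD73+, n = 6) and S+P C7 (PD1+CD73-, n = 5). The subsets of a mouse come from 1 animal, and all females were bought as young adults.

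S100 proteins are small EF-hand proteins, most of which change shape on binding calcium and then bind target proteins, many of them annexins or parts of the cytoskeleton. Annexins bind acidic phospholipids of membranes in the presence of calcium. S100A10 forms a complex with annexin A2 under the plasma membrane, S100A11 binds annexin A1, S100A6 binds annexins A2 and A11 and the calcyclin-binding protein, and S100A4 binds non-muscle myosin IIA. Galectin-1, the product of *Lgals1*, is a lectin for beta-galactosides, and vimentin is an intermediate filament protein. In CD8+ T cells several of these genes are known to be low in naive cells and high in effector and memory cells.

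*S100a6* (chromosome 3 from 90520140 to 90535843 of GRCm39, plus strand), *S100a4* (chromosome 3 from 90511074 to 90513354) and *Anxa2* (chromosome 9 from 69360542 to 69399077) had the most similar profiles among the members over the 7 groups, as given at the end, so the sequence before their start sites is shown. RefSeq promoter windows on build GRCm38.p6 matched 7 of the 10 members by symbol, all except *S100a10*, *Anxa6* and *Lgals1*. The 250 bases upstream of the start site are printed 5′ to 3′ on the plus strand, at chr3:90612644-90612893, chr3:90603520-90603769 and chr9:69453433-69453682 of GRCm38.p6, with motif matches in capitals. Both strands were searched for 4 motifs. The AP-1 motif was TGANTCA, in which N is any base. The letters searched for RUNX factors were TGTGGT. A GC box was taken as GGGCGG. The TATA box was searched as TATAAA. No match of one motif overlapped a match of another in these windows.
S100a6: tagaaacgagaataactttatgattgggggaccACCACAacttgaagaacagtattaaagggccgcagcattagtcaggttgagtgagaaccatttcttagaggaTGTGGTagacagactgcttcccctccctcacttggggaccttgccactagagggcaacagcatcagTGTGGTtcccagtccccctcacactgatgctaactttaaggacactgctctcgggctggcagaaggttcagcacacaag
S100a4: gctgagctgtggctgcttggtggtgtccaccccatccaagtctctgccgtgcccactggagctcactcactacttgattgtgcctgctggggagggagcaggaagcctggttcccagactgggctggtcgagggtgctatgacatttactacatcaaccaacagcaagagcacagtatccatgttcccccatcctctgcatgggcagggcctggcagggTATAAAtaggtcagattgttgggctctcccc
Anxa2: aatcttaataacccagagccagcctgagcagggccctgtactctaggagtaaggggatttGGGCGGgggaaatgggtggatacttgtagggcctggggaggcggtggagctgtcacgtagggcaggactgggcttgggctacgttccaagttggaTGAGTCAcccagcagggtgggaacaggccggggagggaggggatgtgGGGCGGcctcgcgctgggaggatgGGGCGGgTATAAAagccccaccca

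The *S100a6* window held 3 RUNX matches, which began 217, 145 and 79 bases before the start site, the first of them on the opposite strand. The *S100a4* window held a TATA box 31 bases before it. The *Anxa2* window held 1 AP-1 match at 95 bases, 3 GC boxes at 190, 48 and 24 bases, and a TATA box at 17 bases. Among all 32851 promoter windows of this length, 4614 held the RUNX motif, 2217 (6.75%) the AP-1 motif, 10756 (32.7%) the GC box and 4063 (12.4%) the TATA box. Of the 7 member windows, 1 held the RUNX motif, 2 the AP-1 motif, 2 the GC box and 4 the TATA box. These matches describe the letters in the windows only.

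The 56 libraries held 6636532 to 32625243 counts, and summing repeat libraries of the same mouse and subset gave 30 samples. A library with the same counts in Naive and in S+P C4 was left out of both groups, and a nearly identical pair from S+P C7 replicates 1 and 2 was averaged as 1 sample. Replicates 2 and 3 of S+P C4 stood apart, as did replicate 3 of S+P C7, with at most 8002 detected genes where every other sample had at least 12383. 5 genes that define CD8 T cells summed to between 3732 and 6471 CPM (counts scaled to a common library size) in every sample, while 3 CD4 T cell genes summed to at most 28.6 CPM and 5 B cell genes to at most 62.8 CPM. S+P C7 replicate 3 also held 16510 CPM of 3 erythroid genes and 6184 CPM of 8 myeloid genes, 6167 of it from *Cst3*, where the other samples had at most 349 and 431 CPM. The part of these samples in the results was not tested beyond leaving them out. In bulk samples fewer cells that express a gene and less RNA per cell cannot be told apart.

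Per kilobase of exon, with all annotated exons of a gene joined, *Lgals1* was the most abundant member, with a mean of 562 CPM per kb over the 30 samples. *S100a6* followed with 186 CPM per kb, *S100a10* with 116, *Anxa6* with 100.6, *S100a11* with 62.5 and *Vim* with 62.3. *Anxa2* had 49.5 CPM per kb, *S100a13* 23.0, *S100a4* 17.6 and *Anxa1* 17.0. The joined exons can be longer than 1 transcript, by an extent that differs between genes. For *Anxa2* they have 5029 bases and the canonical transcript 1447, and for *S100a6* 2352 and 780. The order of the members therefore depends in part on the length used. Together the 10 genes took from 0.117% to 0.138% of the counts of the Naive samples and from 0.406% to 0.511% of those of the Sensitized samples. This order changed between groups. In Naive TFGS *Anxa6* was the highest member (79.9 CPM per kb) and *S100a6* was among the lowest (4.64), while in S+P C7 *S100a6* reached 267 CPM per kb and was second to *Lgals1* at 819.7.

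**Figure D1:**
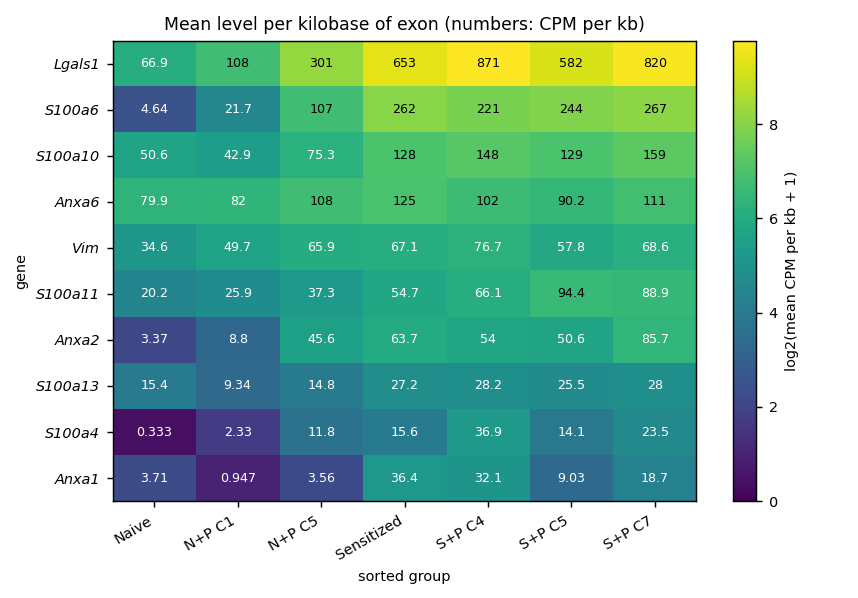
Mean CPM per kilobase of exon of each member (rows) in the 7 sorted groups (columns), with the colour on a log2(value + 1) scale. *S100a6* went from 4.64 in Naive to 262 in Sensitized, while *Anxa6* stayed between 79.9 and 125.

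The comparisons on which the members were chosen show how far they lie apart. *S100a6* had 12.3, 10.8 and 9.71 CPM in the 3 Naive mice and 500.0, 865, 669 and 435 CPM in the 4 Sensitized mice, a log2 fold change of 5.82. All 10 members had a positive log2 fold change from Naive to Sensitized, with a median of 2.36 (0.04 over all genes tested), and for 9 of them every Sensitized mouse was above every Naive mouse. Of all genes tested, 7.59% had groups that did not overlap. *S100a11* was the exception, since Sensitized replicate 4 had 59.3 CPM and a Naive mouse 60.3. After *S100a6* the widest gaps were those of *S100a4* (log2 fold change 5.53), *Anxa2* (4.24), *Anxa1* (3.29) and *Lgals1* (3.29), and the narrowest was that of *Anxa6* (0.64). From Naive to N+P C5, 8 members were higher without overlap, against 12.9% of all genes in either direction. *S100a4* had a log2 fold change of 5.13, *S100a6* of 4.53, *Anxa2* of 3.76 and *Lgals1* of 2.17. *S100a13* and *Anxa1* were the 2 members that overlapped, with log2 fold changes of -0.06 each. The 3 NK cell genes summed to at most 0.0823 CPM in Naive and to 53.3 to 126 CPM in Sensitized mice, with *Klrb1c* at 53.3 to 126 and *Ncr1* at most 1.90 CPM, and N+P C5 had 2.42 to 9.43 CPM. 3 CD4 T cell genes summed to at most 0.491 CPM in Naive, 4.04 to 28.6 CPM in Sensitized and 2.33 to 9.28 CPM in N+P C5 mice, with *Zbtb7b* the main source and *Cd4* at 0 in every sample of the last 2 groups. Erythroid genes summed to at most 2.76 CPM in Naive and 3.904 to 107 CPM in N+P C5. 8 myeloid genes summed to 64.7 to 130 CPM in Naive, 109.5 to 431 CPM in Sensitized and 79.7 to 89.9 CPM in N+P C5 mice. Among them *Lyz2* had a median of 8.89 and a maximum of 40.5 CPM in Naive, against 4.65 and 332 CPM in Sensitized. 5 B cell genes summed to 11.8 to 34.0, 7.44 to 14.7 and 33.3 to 62.8 CPM in Naive, Sensitized and N+P C5. The part of these cells in the differences was not tested. No test is given for these values, and the *S100a4* estimates rest on Naive replicate 3, because Naive replicates 1 and 2 had 0 counts of *S100a4* (at most 0.114 and 0.0931 CPM at 3 counts).

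**Figure D2:**
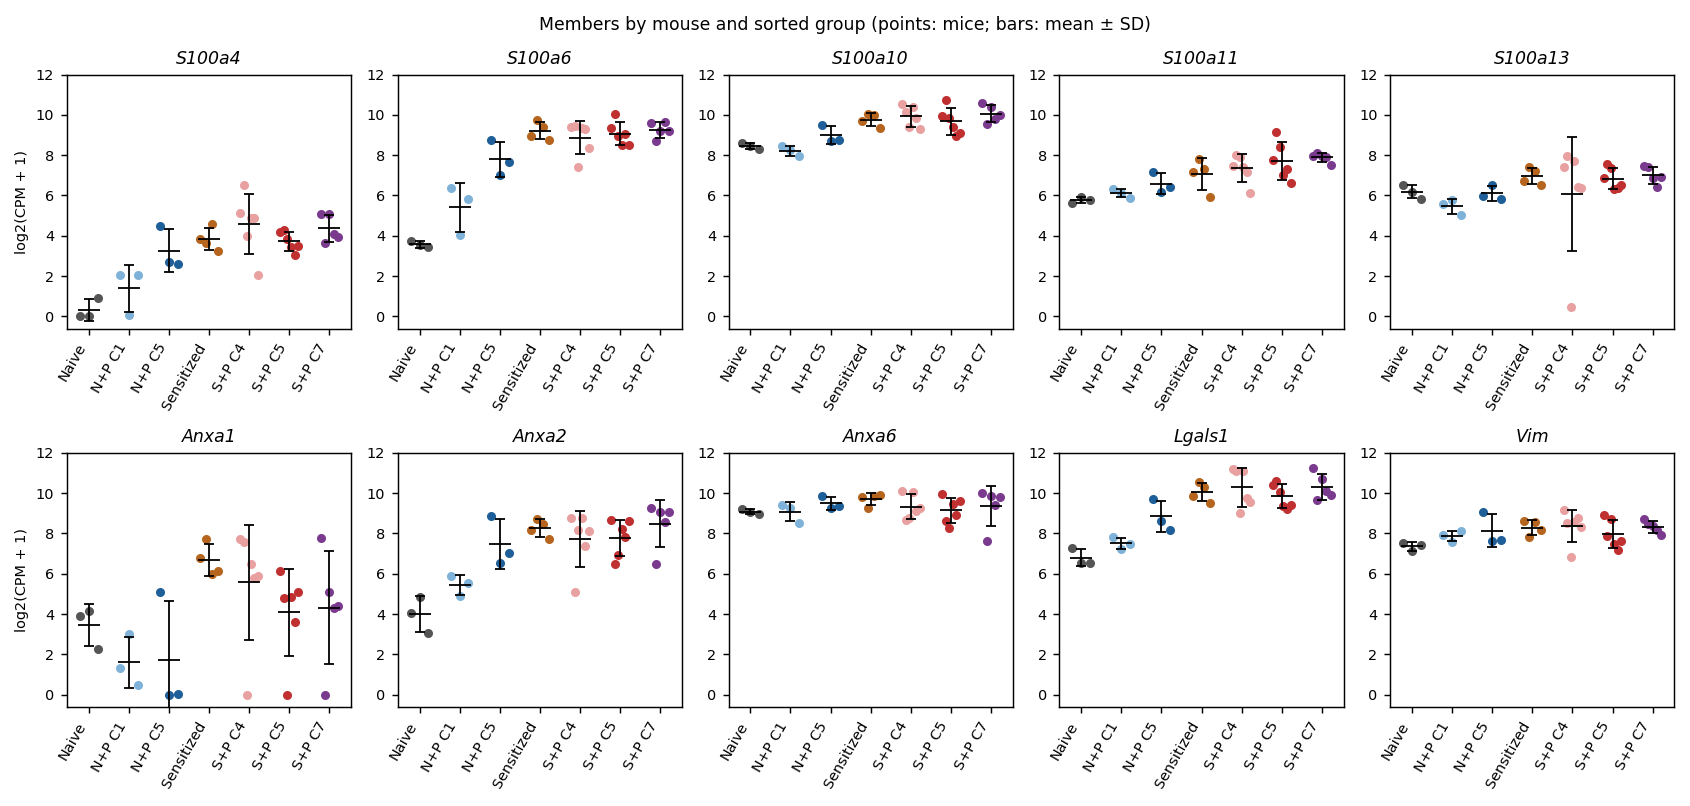
Each point is 1 mouse, the vertical axis is log2(CPM + 1), and bars give the mean and SD of each sorted group. In *S100a6* the 3 Naive mice lie at the bottom (9.71 to 12.3 CPM), N+P C1 lies between 15.4 and 81.9 CPM, and N+P C5 (129 to 428 CPM) reaches into the span of the sensitized groups, where it overlaps S+P C4 (172 to 687 CPM).

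Whether cells of previously sensitized mothers still differed from those of naive mothers after pregnancy within the PD1- fraction was addressed by S+P C4 against N+P C1. The 2 comparisons named for the choice of the members hold no sample of these 2 groups, but earlier results of these data were known. The N+P C1 cells came from the same mice as N+P C5, which entered the choice. The comparison also sets sensitized against naive mothers, as the choice set Sensitized against Naive mice. Neither its direction nor its calls are therefore independent of the choice. *S100a6*, *S100a10* and *Lgals1* rose, and all 10 members had a positive log2 fold change, with a median of 2.20 where the median of all genes tested was -0.04. *S100a6* had 81.9, 15.4 and 55.97 CPM in the N+P C1 mice and a lowest, median and highest value of 172, 631 and 687 CPM in the 6 S+P C4 mice. Every S+P C4 mouse was thus above every N+P C1 mouse. The log2 fold change was 3.35 (SE 0.54, adjusted p = 0.00282) by the quasi-likelihood test of edgeR, adjusted over all genes by the Benjamini-Hochberg method. *Lgals1* (chromosome 15 from 78810875 to 78814670) had 224, 151 and 175 CPM in N+P C1 and from 512 to 2318 CPM, with a median of 1527, in S+P C4. Its log2 fold change was 3.01 (SE 0.51, adjusted p = 0.00398 in the same edgeR test). *S100a10* (chromosome 3 from 93462213 to 93474510), which was already at 321 to 389 CPM in Naive TFGS, had 345, 301 and 247 CPM in N+P C1 and 622, 1026 and 1497 CPM as the lowest, median and highest in S+P C4. Its log2 fold change was smaller, 1.79 (SE 0.36, adjusted p = 0.0454 in the same edgeR test), and these groups did not overlap either.

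These 3 of 10 members passed both thresholds, which were an adjusted p below 0.1 and a log2 fold change beyond 0.9 in either direction, where 12 genes or 0.061% of all genes tested did. They were also the 3 members whose groups did not overlap, against 3.29% of all genes. An unadjusted p under 0.05 was reached by 8 members, all of them higher in S+P C4, against 9.22% of all genes. DESeq2 on the same samples called 7 members (those 3, *S100a4*, *S100a11*, *Anxa1* and *Anxa2*), against 4.77% of the genes it tested. *Anxa2* had a log2 fold change of 2.62 (SE 0.71, unadjusted p = 0.000835, adjusted p = 0.374 from edgeR). It ran from 28.7 to 57.6 CPM in N+P C1 and from 164 to 439 CPM in S+P C4 except for replicate 2, 1 of the samples with few genes, at 32.7 CPM. *S100a4* had 3.98 (SE 1.45, unadjusted p = 0.00989), *S100a11* 1.35 (SE 0.51, unadjusted p = 0.0127), *Anxa1* 5.08 (SE 2.20, unadjusted p = 0.0277) and *S100a13* 1.59 (SE 0.78, unadjusted p = 0.0490) as log2 fold changes in edgeR, each with an adjusted p from 0.443 to 0.539. The membrane-binding protein gene *Anxa6* (from 370.2 to 690.4 CPM in N+P C1 and from 402 to 1087 CPM in S+P C4) and *Vim* (from 190.4 to 276 CPM and from 114 to 574 CPM) had an unadjusted p of 0.438 and 0.153 in edgeR.

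The calls were not equally firm. With no filter on low counts none of the 3 passed (adjusted p = 0.235 for *S100a6* and *Lgals1* and 0.462 for *S100a10* in edgeR), with only the 2 groups in the fit *Lgals1* alone did, and without N+P C1 replicate 2 only *S100a6* did (*Lgals1* adjusted p = 0.145), while without the 3 samples with few genes *Anxa2* and *S100a13* were added. The *S100a10* call was also lost without N+P C1 replicate 1 (adjusted p = 0.503), 2 (0.582) or 3 (0.570) or S+P C4 replicate 4 (0.110 in edgeR). Among the alternatives, the lowest and highest adjusted p were 4.72e-10 and 0.235 for *S100a6*, 5.82e-08 and 0.235 for *Lgals1*, and 1.93e-05 and 0.582 for *S100a10*. Markers of other cells differed between the groups in both directions. 5 B cell genes were lower in S+P C4 by median, with sums of 9.33 to 32.9 CPM (median 19.8) in N+P C1 and 0 to 15.9 CPM (median 0.224) in S+P C4. 3 NK cell genes summed to 0.0287 to 1.12 CPM in N+P C1 and 0.833 to 90.7 CPM in S+P C4, with *Klrb1c* alone at 0 to 1.12 and 0.199 to 90.7 CPM and *Ncr1* at a median of 0 in both. 8 myeloid genes summed to 64.0 to 86.5 CPM and 105 to 126 CPM. *S100a8* and *S100a9*, which are among them, did not rise with the sum. *S100a8* was at 0 to 2.98 CPM in N+P C1 and 0 to 0.914 CPM in S+P C4. *S100a9* was at 0 to 0.697 CPM in N+P C1 and at 0 in every S+P C4 sample. *Cst3* alone was at 59.3 to 76.0 and 76.2 to 122 CPM, *Itgam* at 0 in every N+P C1 sample and at 0 to 13.5 CPM (median 5.50) in S+P C4, and *Adgre1* at 0 in every sample of both groups. Of the 8 genes 1, *Itgam*, had an unadjusted p under 0.05 (p = 0.0105, adjusted p = 0.443 in edgeR). The part of these cells in the result was not tested.

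**Figure D3:**
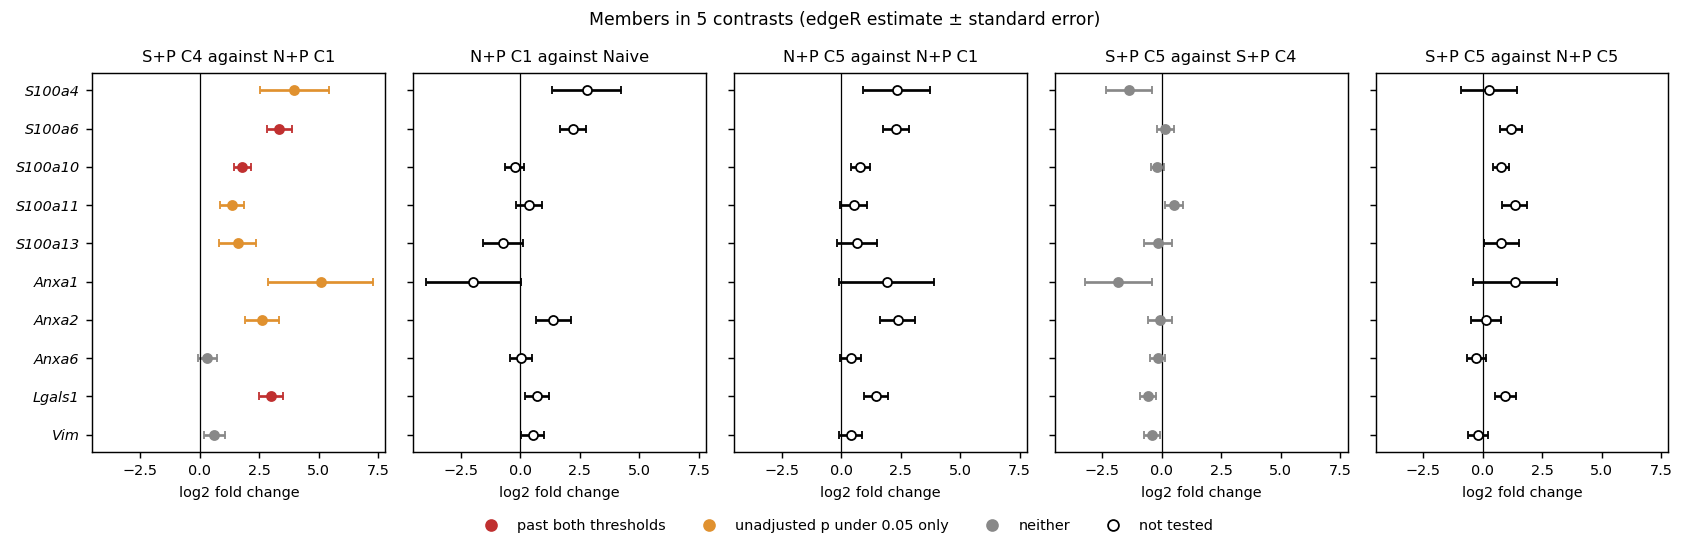
Log2 fold change of each member with its standard error in 5 comparisons, from edgeR. Red points passed both thresholds and orange points had an unadjusted p under 0.05 only. Open points, labelled not tested, belong to comparisons given as descriptions and are drawn so whatever their edgeR result. Among the other comparisons, red points occur in S+P C4 against N+P C1 alone (*S100a6*, *S100a10* and *Lgals1*).

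In mice without a skin graft *S100a6* formed a series of levels. Naive mice, which were unmated, had 10.9 ± 1.28 CPM (SD, n = 3). In naive mothers N+P C1 had 51.1 ± 33.5 CPM (SD, n = 3) and N+P C5 had 252 ± 156 CPM (SD, n = 3). The 3 groups did not overlap, but N+P C1 replicate 2 at 15.4 CPM lay close to the Naive mice. Because the levels of Naive and N+P C5 mice had chosen the members, comparisons with either group are given as descriptions, and nothing is read from their counts of calls. Between N+P C1 and Naive the log2 fold change of *S100a6* was 2.23 (SE 0.54). 0 members passed both thresholds in edgeR, as did 0% of all genes, and 1, *S100a6*, was called by DESeq2, which called 3.23% of its genes. The groups did not overlap for 4 members, against 7.3% of all genes, with *S100a6*, *Anxa2* and *Vim* higher in N+P C1 and *S100a13* lower.

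Between the PD1+CD73+ and PD1- cells of the same naive mothers, N+P C5 against N+P C1, all 10 members had a positive log2 fold change, with a median of 1.14 where that of all genes was 0. The log2 fold change was 2.30 (SE 0.54) for *S100a6*, 2.37 (SE 0.75) for *Anxa2*, 1.47 (SE 0.51) for *Lgals1* and 0.81 (SE 0.39) for *S100a10*, and each of them was higher in N+P C5 in 3 of 3 mice. *Anxa2* had 57.6, 28.7 and 46.3 CPM among PD1- cells and 466.2, 92.0 and 129.7 CPM among PD1+CD73+ cells, with replicate 1 the highest in both subsets. The same mouse also had the highest N+P C5 level of *S100a4*, *S100a6*, *S100a10*, *S100a11*, *Anxa1*, *Anxa6*, *Lgals1* and *Vim*. For 6 members the groups did not overlap, against 10.8% of all genes. 0 members passed both thresholds in edgeR, against 0.00509% of all genes. With the mouse as a replicate block 1 did (*S100a6*), against 0.219% of all genes in that fit, and DESeq2 called 2 (*S100a6* and *Anxa2*), against 3.82% of its genes. Marker sums of B cells, NK cells and erythroid cells were higher in N+P C5 without overlap. Those of 8 myeloid genes (64.0 to 86.5 and 79.7 to 89.9 CPM) and 3 CD4 T cell genes (0 to 8.50 and 2.33 to 9.28 CPM) overlapped. 5 B cell genes summed to 9.33 to 32.9 CPM in N+P C1 and 33.3 to 62.8 CPM in N+P C5, mostly *Cd79b*. *Cd79a* of the same list was at 0.603 to 4.95 CPM in N+P C1 and 0 to 1.60 CPM in N+P C5. The NK cell genes summed to 0.0287 to 1.12 and 2.42 to 9.43 CPM, with *Ncr1* at 0 in every N+P C5 sample, and 3 erythroid genes to 0.862 to 1.53 and 3.904 to 107 CPM. The part of these cells in the differences was not tested.

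In sensitized mothers no difference of the members between the gates was detectable with these numbers of mice. Between S+P C5 and S+P C4, *S100a6* had 358, 507 and 1047 CPM as the lowest, median and highest of 6 mice in S+P C5 against 172, 631 and 687 CPM in S+P C4. The log2 fold change was 0.14 (SE 0.36) for *S100a6*, -0.20 (SE 0.27) for *S100a10* and -0.58 (SE 0.35) for *Lgals1*, and *S100a6* was higher in 3 of 6 mice. 0 members passed both thresholds in edgeR, against 0.0305% of all genes, 0 had an unadjusted p under 0.05, against 13.3%, and DESeq2 called 0, against 4.67% of its genes. For S+P C7 against S+P C4 the same 3 rules gave 0, 0 and 0 members, against 0.00509%, 15.9% and 5.26% of all genes. They also gave 0, 0 and 0 for S+P C7 against S+P C5, where the shares of all genes were 0%, 12.7% and 2.45%. *S100a6* had 762, 412, 582, 805 and 584 CPM in the 5 S+P C7 samples, within the span of S+P C5. The first of these samples is the merged one of replicates 1 and 2, which was paired with mouse 1. The replicate block changed none of these 3 counts.

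Sensitized mice that had not been pregnant also entered the choice of the members, so nothing is read from calls against them. Relative to these mice, 0 members passed both thresholds in S+P C4 (0.00509% of all genes), S+P C5 (0.0712%) or S+P C7 (0.0305%) in edgeR. At an unadjusted p under 0.05 the counts of members were again 0, 0 and 0, against 12.7%, 13% and 10.2% of all genes. DESeq2 called 0, 0 and 0 members, against 4.53%, 5.32% and 3.49% of its genes. *S100a6* had log2 fold changes of -0.25 (SE 0.41), -0.11 (SE 0.41) and 0.03 (SE 0.42) in these 3 comparisons, and *Lgals1* of 0.42 (SE 0.40), -0.17 (SE 0.39) and 0.33 (SE 0.41). The order of the 7 groups by mean *S100a6* level was S+P C7 (629 ± 158 CPM, SD, n = 5), Sensitized (617 ± 193, n = 4), S+P C5 (573 ± 257, n = 6), S+P C4 (520.2 ± 218, n = 6), N+P C5, N+P C1 and Naive. Neighbours among the first 4 differed by less than their spread, and their mice overlapped. N+P C5 overlapped S+P C4 as well, since N+P C5 replicate 1 had 428 CPM and S+P C4 replicates 3 and 6 had 172 and 322 CPM.

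**Figure D4:**
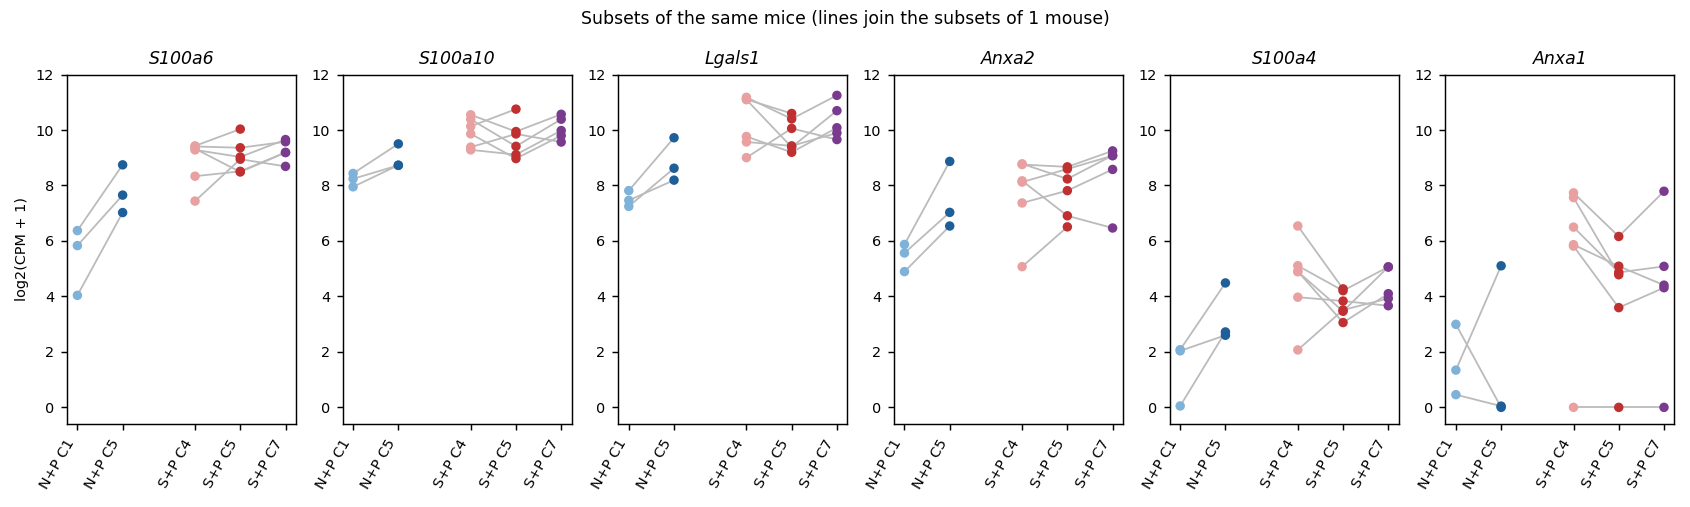
Levels of 6 members as log2(CPM + 1) in the subsets of each mouse, joined by a line, with the merged S+P C7 sample of replicates 1 and 2 on the line of mouse 1. In N+P mice 5 of the 6 members, all but *Anxa1*, were higher in C5 in 3 of 3 mice, whereas in S+P mice the lines of *S100a6* from C4 to C5 went up in 3 and down in 3 of 6 mice.

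The difference of the 2 gate effects, S+P C5 minus S+P C4 less N+P C5 minus N+P C1, contains the N+P C5 levels that chose the members and is therefore a description as well. It was negative for all 10 members (median log2 -1.54, where that of all genes was 0.11), a direction in part fixed by the choice. The values were -2.16 (SE 0.64) for *S100a6*, -2.06 (SE 0.62) for *Lgals1*, -2.47 (SE 0.89) for *Anxa2*, -3.72 (SE 1.72) for *S100a4* and -1.02 (SE 0.47) for *S100a10*. 0 members passed both thresholds in edgeR, against 0% of all genes, and DESeq2 called 2 (*S100a6* and *Lgals1*), against 3.69% of its genes.

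PD1+CD73+ cells of sensitized and naive mothers were described side by side in the same way. *S100a6* had 428, 129 and 200.2 CPM in N+P C5, with a log2 fold change of 1.18 (SE 0.47) to S+P C5. *S100a11* had 143, 71.0 and 85.3 CPM in N+P C5 and 97.4, 186 and 576 CPM as the lowest, median and highest in S+P C5, a log2 fold change of 1.34 (SE 0.51). *S100a10* (0.77, SE 0.34) and *Lgals1* (0.95, SE 0.45) also had positive log2 fold changes, and the groups overlapped in each of these 4 genes. 0 members passed both thresholds in edgeR (0% of all genes) and 0 in DESeq2 (2.47% of its genes).

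The levels of the other members in sensitized mice were spread widely between mice. *Lgals1* had 938, 1479.9, 1256 and 741 CPM in the 4 Sensitized mice and 155, 91.7 and 92.9 CPM in the Naive mice. In the 5 S+P C7 samples it had 2434, 805, 1659, 1083 and 950.1 CPM, and in S+P C5 from 586 to 1546 CPM with a median of 876. *Lgals1* was lower in S+P C5 than in S+P C4 in 5 of 6 mice, although the groups overlapped. *S100a10* had 816, 1053, 1033 and 649.6 CPM in Sensitized mice and from 501 to 1724 CPM in S+P C5. *Anxa2*, which encodes its annexin partner, had 290.1, 423, 358 and 210.3 CPM in Sensitized mice against 15.5, 27.9 and 7.41 CPM in Naive mice. Its S+P C7 samples had 607, 87.4, 542, 381 and 538 CPM, so that only the sample with few genes lay below the others. Per kilobase, *S100a10* and *Anxa2* were at 50.6 and 3.37 CPM per kb in Naive cells and at 159 and 85.7 CPM per kb in S+P C7. *S100a11* had 48.7, 60.3 and 53.0 CPM in Naive and 144, 222, 159.9 and 59.3 in Sensitized mice, and its S+P C7 samples had 244, 271, 252, 237 and 183 CPM. *Vim* had 183, 139 and 172 CPM in Naive, 539, 197 and 204 in N+P C5 and 391, 223, 373 and 287 in Sensitized mice. *Anxa6*, an annexin with a duplicated core, had 590.1, 528 and 506 CPM in Naive and 905, 609.7, 923 and 947 CPM in Sensitized mice. By ratio it had the narrowest span of the 10 members over the group means, from 541 CPM in Naive to 846 CPM in Sensitized.

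Single members had patterns of their own. *Anxa1*, whose product binds formyl peptide receptors and restrains inflammation, was at 13.99, 17.0 and 3.78 CPM in Naive mice. In N+P C1 it had 1.54, 6.97 and 0.373 CPM, and N+P C5 had 33.4, 0 and 0.0310 CPM, where 1 mouse carried nearly all of it. In Sensitized mice it had 109.8, 214, 63.3 and 68.4 CPM. In S+P C4 the lowest, median and highest values were 0, 73.4 and 212 CPM and in S+P C5 0, 27.3 and 70.6 CPM, lower than S+P C4 in 5 of 6 mice with both at 0 in the other (log2 fold change -1.83, SE 1.40, unadjusted p = 0.200 in edgeR). *S100a4*, the lowest of the S100 members by mean over all samples, had 3.22, 0.0348 and 3.10 CPM in N+P C1 cells, with 21.4, 5.58 and 5.06 for N+P C5 and 13.5, 11.5, 23.0 and 8.49 in Sensitized mice. *S100a13*, whose product takes part in protein export without a signal peptide, was at 0.397 CPM in S+P C4 replicate 3 and between 31.6 and 249.98 CPM in every other sample. The *S100a13* gene shares 54.44% of its exon bases with *S100a1* on the opposite strand, and *S100a4* shares 33.26% with *Gm42674*. *Lgals1* shares 30.63% with *Gm30368* and *Vim* 12.33% with *Gm54102*, both on the opposite strand and not analysed here. *S100a1* and *Gm42674* had a median of 0 counts per library, and the strand setting of the counting is not given in the sources used here, so reads of such pairs cannot be told apart. *S100a11* had 2 other genomic loci that match at least 200 bases of its transcript at 95% identity or more, as had *S100a10*, and reads that map to several places were removed before counting, so the levels of both are uncertain.

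Among related genes outside the 10, the other S100 genes were mostly low, while levels of the annexin, galectin and partner genes ranged widely. Of 13 other S100 genes, 9 were tested, and 0 passed both thresholds in edgeR in any of 11 comparisons, with 1 at an unadjusted p under 0.05 in S+P C4 against N+P C1. The 2 with the smallest unadjusted p, *S100a3* and *S100a9*, had medians of at most 0.789 CPM in every group. Of 9 other annexin genes, 5 were tested and 0 passed in edgeR, with 0 at an unadjusted p under 0.05 in that comparison. *Anxa4* had a Naive median of 0.0412 CPM, which compares with 13.4 for N+P C5 and 43.7 for S+P C7, and *Anxa5*, a phosphatidylserine-binding annexin, had a median of 99.3 CPM in Naive and 115 in Sensitized. Of 8 other galectin genes, 5 were tested and 0 passed in edgeR, with 1 at an unadjusted p under 0.05 there. *Lgals3*, which encodes galectin-3, had a median of 0.0412 CPM in Naive, 127 in Sensitized and 245 in S+P C4 (log2 fold change 4.18, SE 1.84, unadjusted p = 0.0302 against N+P C1 in edgeR), and *Lgals12* was at a median of at most 0.302 CPM. Of 26 genes for partners of S100 proteins and annexins and for the cortical cytoskeleton, 24 were tested and 1, *Ahnak*, passed both thresholds in 1 comparison.

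*Ahnak* encodes a very large scaffold protein that binds the S100A10 and annexin A2 complex. Its median was 104 CPM among Naive mice and 554 among Sensitized mice. Post-partum medians were 157 CPM (N+P C1), 378.5 (N+P C5) and 876 (S+P C4). Against N+P C1 it was higher in S+P C4 by a log2 fold change of 2.54 (SE 0.43, adjusted p = 0.00398 in edgeR). In the partner list 5 of 24 genes had an unadjusted p under 0.05 in that comparison, all higher, against the 9.22% of all genes given above, with a median of 0.24 over the list. *Ahnak* had a gate difference of -2.59 (SE 0.54). In S+P C5 the median of *Ahnak* was 395 CPM, lower than in S+P C4 (log2 fold change -1.08, SE 0.31, unadjusted p = 0.00150, adjusted p = 0.297 in edgeR).

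Across the 7 group means of log2 CPM, the 5 genes of 8263 most like *S100a6* were *Smim29* (Pearson's r 0.992), *Prr13* (0.991), *Anxa2* (0.991), *Il2rb* (0.9896), the beta chain of the IL-2 and IL-15 receptors, and *S100a4* (0.986). *Lgals1* ranked 9 (r 0.980), *S100a11* 75, *Vim* 89 and *S100a10* 90, while *Anxa6* ranked 536, *S100a13* 633 and *Anxa1* 1007 (r 0.374). These are descriptions over 7 groups that share libraries and a contrast between naive and memory cells. *Il2rb* went from a Naive mean of 147 CPM to 374 for N+P C5 and 451 for Sensitized, and *Prr13* from 66.8 to 235 and 412 CPM. *Smim29* had the highest r with a small range, from 55.3 CPM in Naive to 97.6 in S+P C7.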

How the data were processed

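RNA was measured by SmartSeq2 RNA-Seq of 200 sorted TFGS per library, with Nextera XT libraries sequenced in 1 run. The authors deposited raw counts of reads per gene, made with cutadapt 3.4, STAR 2.6.1b and featureCounts 2.0.1 on GRCm39 after removal of reads that map to several places. The annotation release and strand option are not given in the sources used here. GENCODE M39 held 54749 of the 55359 gene identifiers and gave the symbols, exons and lengths. Technical libraries were summed per mouse and subset. CPM were computed from these counts on TMM-scaled library sizes. A count of 0 was given an upper limit of 3 counts, which covers counting error only. This limit was divided by the unscaled total counts, so it is not on the scale of the CPM.

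Genes were filtered with edgeR's filterByExpr at a minimum count of 10, and all 7 groups entered 1 quasi-likelihood fit (edgeR 4.0.16, R 4.3.3) with Benjamini-Hochberg adjustment over 19657 genes. Calls needed an adjusted p below 0.1 and a log2 fold change beyond 0.9 either way. The members and gene lists were chosen with earlier results of these data known. All members were described, and from each further list the genes past both thresholds, or else the 2 with the smallest unadjusted p, were named, with the 5 genes most like *S100a6* over the group means. Subsets with the same number within N+P or within S+P came from the same mouse. Their deviations from the group means correlated with mean r from 0.047 to 0.174 within mice and from -0.024 to -0.017 between mice. Alternatives were DESeq2 1.42.0, RLE size factors, no filter, other thresholds, all libraries as labelled, only the groups compared, the mouse as a replicate block, and leaving out each replicate or the 3 samples with few genes. The code was tested on simulated data. P-values measure the spread between samples, of which a post-partum mouse gave several. The main fit has no term for the mouse, so subsets of 1 mouse count as separate samples in it. Of the tests, only the replicate block uses the pairing. Gene copies were searched with BLAST 2.17.0, and motifs in RefSeq windows with Python 3.11.15.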

Additional observations from a re-analysis of the deposited data

Results flagged for a closer look

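In each group of 4 to 6 samples the gap between the most extreme sample and its neighbour was compared with the range of the group by Dixon's test. This marked 6 of 40 combinations of member and group, where chance alone marks about 1 in 20. In S+P C4 replicate 3, *S100a13* was at 0.397 CPM (next lowest 82.1), *Anxa1* at 0 CPM (next 55.3) and *Vim* at 113.9 CPM (next 323). In S+P C7 replicate 3, *Anxa2* was at 87.4 CPM (next 381) and *Anxa6* at 197.3 CPM (next 687). These 5 values come from samples with few detected genes. The remaining one was *Anxa6* in Sensitized replicate 2, at 609.7 CPM (next 905). The causes were not tested.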

How the results depend on the processing

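For S+P C4 against N+P C1, the count of members past both thresholds was 3, and it was 7 with DESeq2, 0 with no filter, 1 with only the groups compared, 5 without the 3 samples with few genes, and from 1 to 3 when 1 replicate was left out. For N+P C1 against Naive it was 0, and 1 with DESeq2 or without those samples. For N+P C5 against N+P C1 it was 0, and 2 with DESeq2, 1 with the mouse as a replicate block and 1 without those samples. For the gate difference it was 0, and 2 with DESeq2. These last 3 share a group with the choice of the members and are descriptions. The causes were not tested. The replicate block changed no other count of calls. The other 82 counts under an alternative and 110 with a replicate left out were within 1.5 times their main value, and no value of a member reversed where it had been called.

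Among described values, *Anxa1* in N+P C5 against Naive fell from -0.06 to -9.25 on the log2 scale without N+P C5 replicate 1, which held nearly all its counts there. *S100a4* against Naive rests on Naive replicate 3, with 11.87 in Sensitized and 11.47 in N+P C5 without it. *Vim* in N+P C5 against Naive was 0.28 without N+P C5 replicate 1. With 3 mice in each naive group, differences that are small beside the standard errors were not detectable.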

Other observations

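*Anxa1* was at 0 counts in all 3 subsets of S+P mouse 3, of 15547934 (C4), 17188587 (C5) and 21997707 (C7) counts, which allows at most 0.193, 0.175 and 0.136 CPM. S+P C5 of this mouse was not among the samples with few genes. Between technical libraries of the same mouse and subset, *Anxa1* also varied most among the members, with a median absolute difference of 1.22 on the log2(CPM + 1) scale over 23 pairs and a maximum of 4.85. *S100a10* had a median of 0.13, *S100a6* 0.26 and *Lgals1* 0.27. Whether the 2 libraries of a pair hold the same or separately sorted cells is not given. *S100a11* was higher in S+P C7 than in S+P C4 in 5 of 5 mice, and *S100a13* was higher in S+P C7 than in S+P C5 in 5 of 5 mice. The smallest log2 differences were 0.172 and 0.0167. No other member had 1 direction in all mice of these comparisons. The share of all genes that did was not computed, so nothing is read from these 2. In each case 1 of the 5 pairs sets the merged S+P C7 sample of replicates 1 and 2 against mouse 1. Neither gene had an unadjusted p under 0.05 in edgeR.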
